A study of Mus musculus with 6 samples.

Results

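The RE1-silencing transcription factor REST (gene Rest, also called NRSF), the corepressors it recruits and the phosphatases that act with it were followed across the conversion of mouse fibroblasts by Tet3. The genes taken were Rest, the CoREST genes Rcor1, Rcor2 and Rcor3, Sin3a, the deacetylases Hdac1 and Hdac2, and the small phosphatases Ctdsp1, Ctdsp2 and Ctdspl. Every non-control probe whose printed accession belongs to 1 of these 10 genes was kept by itself, which gave 17 probes of the 27234 that carry a gene symbol (39429 probes in all, 20659 genes). 5 genes had a single probe, and Rest, Rcor1, Hdac1, Ctdsp2 and Ctdspl had several. Rest lies on mouse chromosome 5, Rcor1 on 12, Rcor2 on 19, Rcor3 and Ctdsp1 on 1, Sin3a and Ctdspl on 9, Hdac1 on 4, and Hdac2 and Ctdsp2 on 10.

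REST is a zinc finger protein that binds RE1 elements near genes of neuronal function and keeps them silent in cells that are not neurons. At its carboxyl end it recruits CoREST, which carries HDAC1, HDAC2 and the histone demethylase KDM1A, and at its amino end it recruits SIN3, which also carries the deacetylases. The small phosphatases CTDSP1, CTDSP2 and CTDSPL act on RNA polymerase II at REST-bound genes, and CTDSP1 has been described to remove phosphates from REST that mark it for destruction. Neurons are known to hold less REST than other cells, and its loss accompanies their differentiation.

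The study followed mouse embryonic fibroblasts (MEFs), mixed mesenchymal cells of the embryo, at what the labels call 1, 3, 5 and 7 dpi of Tet3 induction, and set them beside primary embryonic neurons. TET3 is an enzyme that oxidizes 5-methylcytosine in DNA. MEFs came from ICR E13.5 embryos. The Tet3 cells were such MEFs given adenoviral supernatant with polybrene in 2 infections, and moved in part to neuronal medium with forskolin on days 3 and 5 after the second. The neurons also carried the label E13.5, with no strain given. No array had virus without Tet3, so infection, medium and Tet3 cannot be told apart. Each group was 1 array, labelled with Cy3. With no replicate, no test between groups could be made, and a difference speaks for 1 pair of arrays.

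Values are log2 signals of the deposited table, in which the 75th percentile of each array is 0. The error given with a difference (±) is that of the scanner software for the array alone. It was 0.20 to 0.23 for the 17 probes, so a difference beyond about 0.40 exceeds its 95% interval. For a single value its median over the probes above background was 0.14 on each array. The error thus works as a nearly fixed cut and is not a spread measured between samples. A difference was called where it reached 2-fold, which is 1 on the log2 scale. The scanner read MEF and 1 dpi together, and the remaining 4 arrays together in a separate scan. For 3, 5 and 7 dpi and for neurons over MEF the scan and the group thus cannot be told apart. The array labelled 7 dpi went against its label at Tet3 itself. Tet3 probe A_55_P2175260 stood at -0.22 in MEF, 1.13 at 1 dpi, 1.74 at 3 dpi, 2.57 at 5 dpi, 0.07 for the array labelled 7 dpi and -0.72 in neurons. Probe A_51_P199339 was not well above background in MEF, on the array labelled 7 dpi or in neurons, and exceeded MEF by at least 24.3-fold at 1 dpi, 44.2-fold at 3 dpi and 116-fold at 5 dpi. The third, A_52_P491273, lay within 0.46 of MEF on all 4 Tet3 arrays, at -3.19 in MEF, -3.64 at 1 dpi, -2.87 at 3 dpi, -2.83 at 5 dpi and -2.78 for the array labelled 7 dpi, with -2.27 in neurons.

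These were bulk samples, in which fewer cells of a type and less RNA per cell cannot be told apart. The summed linear signal of 13 probes for fibroblast markers was 574 in MEF, 472 to 700.1 on the Tet3 arrays and 34.6 in neurons. As a sum, fibroblast RNA was thus still abundant on the Tet3 arrays, but single markers differed. At 3 dpi 5 of the 13 were called lower than in MEF and 1 higher (9.24% and 15.9% of all named probes tested). Dcn was 6.52-fold lower there. At 1, 5 and 7 dpi 0 were lower (5.51%, 7.83% and 6.47% of all). In the same order 1, 0 and 1 were higher (5.06%, 17.6% and 16.6%). These were Thy1 at 1 dpi (2.65-fold) and Lum at 7 dpi (2.25-fold). The sum of 18 neuron marker probes was 4.09 in MEF, 8.73 at 1 dpi, 15.6 at 3 dpi, 11.4 at 5 dpi, 24.8 for the array labelled 7 dpi and 118 in neurons. Up to 5 dpi the course of this sum largely followed 1 bright probe, that of Snap25. Its log2 signal was 1.04 in MEF, 2.69 at 1 dpi, 3.50 at 3 dpi and 2.16 at 5 dpi. Counted by probe, 10 were called higher and 1 lower of 14 tested at 3 dpi (15.9% and 9.24% of all). At 5 dpi 12 and 0 of 17 were called (17.6% and 7.83%). Marker RNA of other cells differed too: 14 macrophage marker probes summed to 353 in MEF, 63.2 at 1 dpi, 22.1 at 3 dpi, 6.11 at 5 dpi, 5.29 at 7 dpi and 3.45 in neurons. The sum of 13 probes for astrocytes and radial glia was 2.63 to 4.13 on the MEF and Tet3 arrays and 165 in neurons, so the neuron sample carried glial RNA. Within this sum Fabp7 was 34.0-fold higher at 5 dpi (-0.15) than in MEF (-5.24). Of the 10 glial probes tested there, 2 were called higher and 0 lower (17.6% and 7.83% of all). The part of these cells in the differences below was not tested.

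In the deposited table Rest RNA was within 2-fold of MEF on every array and lowest in neurons. Rest probe A_55_P2143306, the brighter of its pair, stood at -0.09 in MEF, 0.02 at 1 dpi, 0.25 at 3 dpi, 0.37 at 5 dpi, -0.30 for the array labelled 7 dpi and -0.75 in neurons. Ordered by level, 5 dpi was highest, followed by 3 dpi, 1 dpi, MEF, 7 dpi and neurons. Of the 5 steps between neighbours in that order, the step of 0.45 between 7 dpi and neurons alone exceeded its array error. Probe A_51_P348456 stood at -3.80 in MEF, -4.01 at 1 dpi, -3.30 at 3 dpi, -3.55 at 5 dpi, -4.01 for the array labelled 7 dpi and -4.28 in neurons, and no step between its neighbours exceeded the array error. On both Rest probes 3 and 5 dpi were the highest arrays and neurons the lowest.

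Relative to MEF, the 2 Rest probes differed by -0.21 and 0.10 at 1 dpi, by 0.51 and 0.33 at 3 dpi, and by 0.25 and 0.46 at 5 dpi, with A_51_P348456 first. The values of 0.51 and 0.46 exceeded the array error. On the array labelled 7 dpi they stood at -0.20 ± 0.22 and -0.22 ± 0.20 from MEF, inside the array error. In neurons they stood at -0.47 ± 0.22 and -0.66 ± 0.20 from MEF, which is 1.39-fold and 1.59-fold lower. Neither probe reached 2-fold in any of the 7 comparisons. With each array centred on its median, the brighter probe was -0.66 from MEF at 7 dpi and -1.46 in neurons. The sources used here do not say whether these probes also detect REST4, the truncated form that neurons splice.

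**Figure D1:**
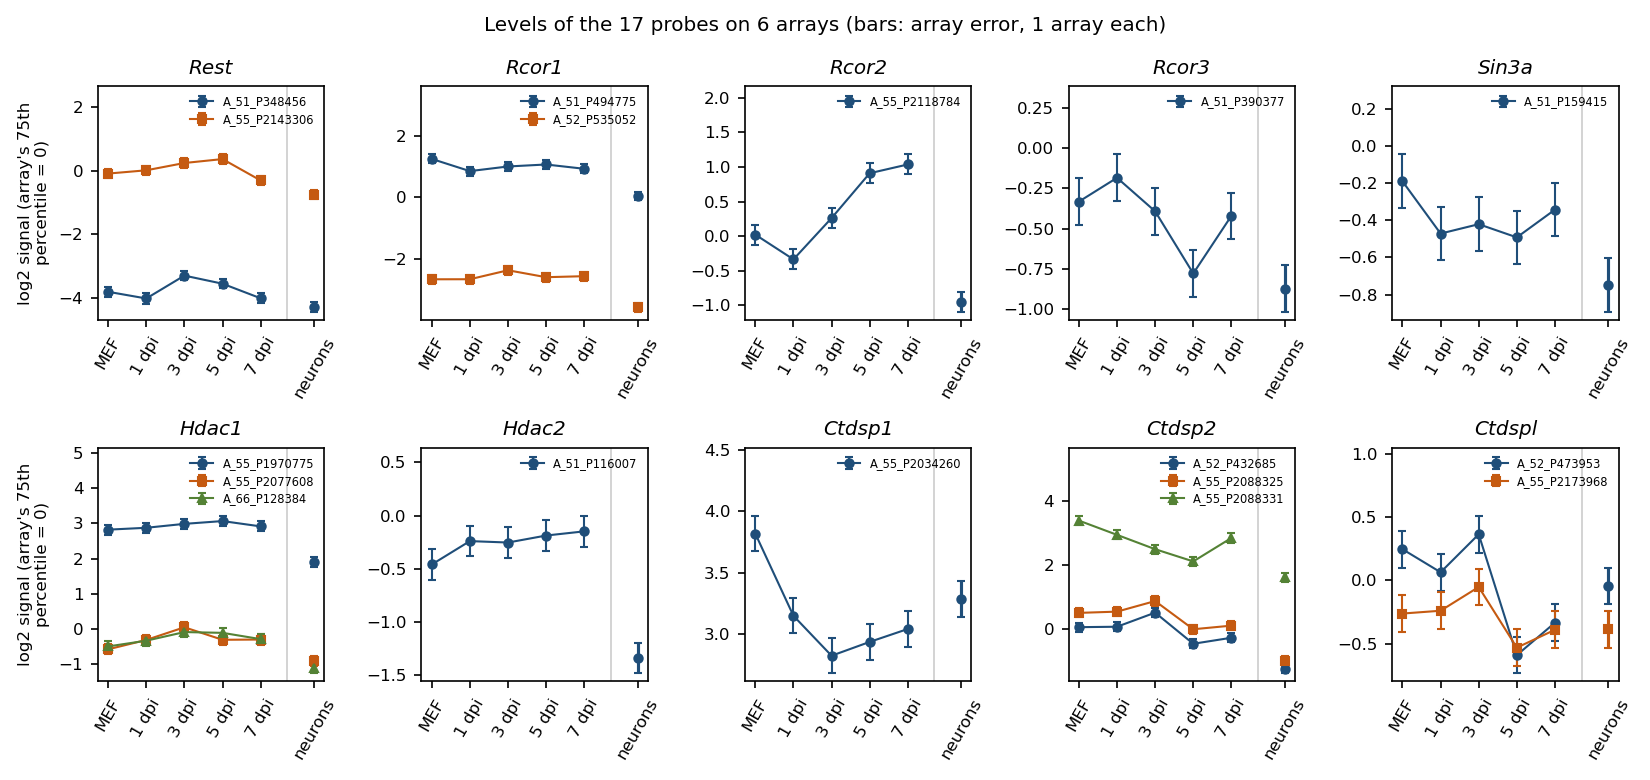
Log2 signal (75th percentile of each array at 0) of the 17 probes, 1 panel per gene, on the MEF array, the 4 Tet3 arrays and the neuron array; each marker is 1 probe on 1 array, bars are the array error, and the vertical scale differs between panels. For 14 of the 17 probes the neuron array is the lowest, and Rcor2 is highest on the array labelled 7 dpi. The share of all probes lowest in neurons is not given, so nothing is read from that count.

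Among the CoREST genes, Rcor2 was the one that reached 2-fold over MEF on a Tet3 array. CoREST proteins link REST to the demethylase and the deacetylases; Rcor2 is known from embryonic stem cells and the developing nervous system. Its probe stood at 0.02 in MEF, -0.34 at 1 dpi, 0.26 at 3 dpi, 0.91 at 5 dpi, 1.04 for the array labelled 7 dpi and -0.95 in neurons. Thus 5 and 7 dpi were the 2 highest arrays, 0.65 above the next, and neurons were the lowest, 0.62 under 1 dpi. The array labelled 7 dpi held 2.02-fold more Rcor2 signal than MEF (log2 difference 1.02 ± 0.20) and 3.97-fold more than neurons (1.99 ± 0.20). The call against MEF is close to the threshold. With each array centred on its median it was not reached.

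Rcor1, the founding CoREST gene, was within the array error of MEF on the Tet3 arrays and lower in neurons. Its brighter probe, A_51_P494775, stood at 1.25 in MEF, 0.86 at 1 dpi, 1.01 at 3 dpi, 1.07 at 5 dpi, 0.93 for the array labelled 7 dpi and 0.05 in neurons. The other, A_52_P535052, stood at -2.66 in MEF, -2.66 at 1 dpi, -2.37 at 3 dpi, -2.60 at 5 dpi, -2.56 for the array labelled 7 dpi and -3.58 in neurons. On both probes the neuron array stood apart below the other 5. Rcor1 was 2.31-fold lower in neurons than in MEF by the brighter probe (-1.21 ± 0.20) and stood at -0.91 ± 0.21 by the other, while on the 4 Tet3 arrays the probes took opposite signs and lay within 0.40 of MEF. Rcor3, a CoREST protein reported to be a weaker repressor, stood at -0.33 in MEF, -0.18 at 1 dpi, -0.39 at 3 dpi, -0.78 at 5 dpi, -0.42 for the array labelled 7 dpi and -0.87 in neurons. Its lowest arrays were neurons and 5 dpi, at -0.54 and -0.45 from MEF.

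Sin3a is the scaffold of the corepressor at REST's amino end. Its probe stood at -0.19 in MEF, -0.47 at 1 dpi, -0.42 at 3 dpi, -0.49 at 5 dpi, -0.34 for the array labelled 7 dpi and -0.75 in neurons. MEF was its highest array and neurons the lowest, at -0.56 ± 0.20 from MEF, and no Tet3 array lay beyond the array error of MEF.

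The deacetylases that both corepressors carry stayed under 2-fold from MEF on the Tet3 arrays, and in neurons they stood below MEF, short of the call. Hdac1 probe A_55_P1970775 stood at 2.83 in MEF, 2.88 at 1 dpi, 2.99 at 3 dpi, 3.07 at 5 dpi, 2.92 for the array labelled 7 dpi and 1.92 in neurons. The other Hdac1 probes, A_66_P128384 and A_55_P2077608, had their highest value on the 3 dpi array, at 0.41 and 0.63 from MEF, and their lowest in neurons, at -0.62 and -0.34 from MEF. All 3 Hdac1 probes were thus lowest in neurons. By the brightest probe neurons stood at -0.91 ± 0.20 from MEF, and the array labelled 7 dpi at 1.00 ± 0.20 from neurons, just under the call. Hdac2 was printed in 10 spots on each array. Its probe stood at -0.46 in MEF, -0.24 at 1 dpi, -0.25 at 3 dpi, -0.19 at 5 dpi, -0.15 for the array labelled 7 dpi and -1.34 in neurons. The SD of its 10 spots was 0.04 to 0.07 on each array, and the neuron array lay below the other 5, which were within 0.31 of each other. Hdac2 was -0.88 ± 0.20 from MEF in neurons, and the array labelled 7 dpi was 2.28-fold above neurons (1.19 ± 0.20).

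The phosphatase genes did not follow a single course. Each is also the host of a miR-26 gene, a family reported to target the phosphatases' own transcripts. In the RefSeq tables for GRCm38.p6 (the array itself is annotated on mm9), miR-26b lies in Ctdsp1 (chr1:74394324-74394344, plus strand), miR-26a-1 in Ctdspl (chr9:119031811-119031832, plus strand) and miR-26a-2 in Ctdsp2 (chr10:126995543-126995564, plus strand). The mature forms are shown because all 3 hosts carry the same seed, bases 2 to 8, in capitals. They differ at 2 of the 21 positions they share.
miR-26b-5p in Ctdsp1: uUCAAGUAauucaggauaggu
miR-26a-5p in Ctdspl and Ctdsp2: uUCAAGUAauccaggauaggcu
The array measured the host transcripts and not the miRNAs.

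Ctdsp1 was highest in MEF. Its probe stood at 3.82 in MEF, 3.15 at 1 dpi, 2.82 at 3 dpi, 2.94 at 5 dpi, 3.04 for the array labelled 7 dpi and 3.28 in neurons. All 5 other arrays lay below MEF by more than the array error. The differences over MEF were -0.67 at 1 dpi, -1.00 at 3 dpi, -0.88 at 5 dpi, -0.78 at 7 dpi and -0.53 in neurons. At 3 dpi the value was 1.99-fold lower, just under the call.

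Ctdsp2 was lower in neurons on all 3 of its probes, and on the Tet3 arrays the probes disagreed. Probe A_55_P2088331 stood at 3.39 in MEF, 2.94 at 1 dpi, 2.49 at 3 dpi, 2.11 at 5 dpi, 2.84 for the array labelled 7 dpi and 1.61 in neurons. It was 2.42-fold lower at 5 dpi (-1.28 ± 0.20) and 3.42-fold lower in neurons (-1.77 ± 0.20) than in MEF. Probe A_55_P2088325, designed on the same accession, stood at 0.50 in MEF, 0.54 at 1 dpi, 0.87 at 3 dpi, -0.01 at 5 dpi, 0.10 for the array labelled 7 dpi and -1.00 in neurons. Here 3 dpi was the highest array, and neurons were again the lowest. The third, A_52_P432685, on another accession of the gene, stood at 0.05 in MEF, 0.07 at 1 dpi, 0.51 at 3 dpi, -0.47 at 5 dpi, -0.28 for the array labelled 7 dpi and -1.25 in neurons. At 3 dpi the Ctdsp2 probes ranged from -0.89 to 0.45 over MEF, a gap of 1.35 that was the largest among the 35 sets of probes of one gene in one comparison. At 5 dpi all 3 lay below MEF, and in neurons they were at -1.77, -1.50 and -1.30.

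Ctdspl was near its MEF level in neurons. Probe A_52_P473953 stood at 0.25 in MEF, 0.06 at 1 dpi, 0.36 at 3 dpi, -0.59 at 5 dpi, -0.33 for the array labelled 7 dpi and -0.04 in neurons. Probe A_55_P2173968 stood at -0.26 in MEF, -0.24 at 1 dpi, -0.05 at 3 dpi, -0.53 at 5 dpi, -0.39 for the array labelled 7 dpi and -0.39 in neurons. Both had 3 dpi as the highest array and 5 dpi as the lowest. Neurons over MEF came to -0.29 and -0.12, within the array error.

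Counted over the 17 probes, few reached the call on the Tet3 arrays. At 1 dpi and at 3 dpi none was called in either direction, where 5.06% of all named probes tested were called higher and 5.51% lower at 1 dpi, and 15.9% higher and 9.24% lower at 3 dpi. At 5 dpi 0 were higher (17.6% of all) and 1 was lower (7.83%), Ctdsp2. At 7 dpi 1 was higher (16.6%), Rcor2, and 0 were lower (6.47%). On the array labelled 7 dpi against 3 dpi none was called (10.9% higher and 6.76% lower of all), with Rcor2 furthest up at 0.78 and Ctdsp2 probe A_52_P432685 furthest down at -0.79. With 17 probes these shares amount to few probes, and nothing is read from the counts. All 17 probes were well above background on all 6 arrays, so the filter on dim probes left none out.

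In neurons over MEF, 4 of the 17 were called lower (15.3% of all) and 0 higher (30.6%), namely Rcor1 by its brighter probe and the 3 Ctdsp2 probes. The shift was under 2-fold for 13 probes and had one sign: all 17 lay below 0, against 46.1% of all probes measured. The 17 are probes of 10 genes on 1 pair of arrays and are not independent. Of the 17, 14 lay beyond their array error. That share is not given for all probes, so nothing is read from it. The median of the 17 was -0.66 and that of all measured probes 0.11. Relative to that median of all, the members stood at -0.77 in the deposited table and -0.69 after quantile normalization; centring shifts all probes of an array alike and cannot change this value. All 17 lay below 0 in the deposited table, after quantile normalization, where the median of all was -0.16, and after centring, where it was -0.69. The array labelled 7 dpi over neurons gave 5 higher (13.2% of all) and 0 lower (19.4%), which were Rcor2, Rcor1 by A_52_P535052, Hdac2 and 2 Ctdsp2 probes. This comparison shares the neuron array with the one before it and is not a separate look at neurons. Of all probes called in neurons over MEF, 66.6% were higher in the deposited table, 44.9% after quantile normalization and 31.1% after centring, so the balance over the whole array depends on the scaling. For 3, 5 and 7 dpi over MEF the higher share was 63.2%, 69.2% and 71.9%, against 42.5%, 44.7% and 47.6% after quantile normalization and 41.0%, 40.4% and 42.5% after centring. For 7 dpi over neurons it was 40.5%, against 51.3% and 59.9%, and for 7 dpi over 3 dpi 61.8%, against 57.2% and 51.2%.

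On the 4 Tet3 arrays the members had medians of 0.01, 0.21, -0.18 and -0.15 over MEF at 1, 3, 5 and 7 dpi, against 0.08, 0.17, 0.17 and 0.15 for all measured probes. After quantile normalization the medians of all measured probes were 0.05, 0.04, 0.00 and 0.02, and after centring 0.01, -0.13, -0.24 and -0.28. At 5 and 7 dpi the members' median lay -0.35 to -0.24 from that of all in the deposited table and after quantile normalization. The probes lay on both sides of 0 at every time. The span of a probe over MEF and the 4 Tet3 arrays had a median of 0.63 over the members, and over all 6 arrays 1.12, beside 1.25 for the 20447 named probes above background on all 6.

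**Figure D2:**
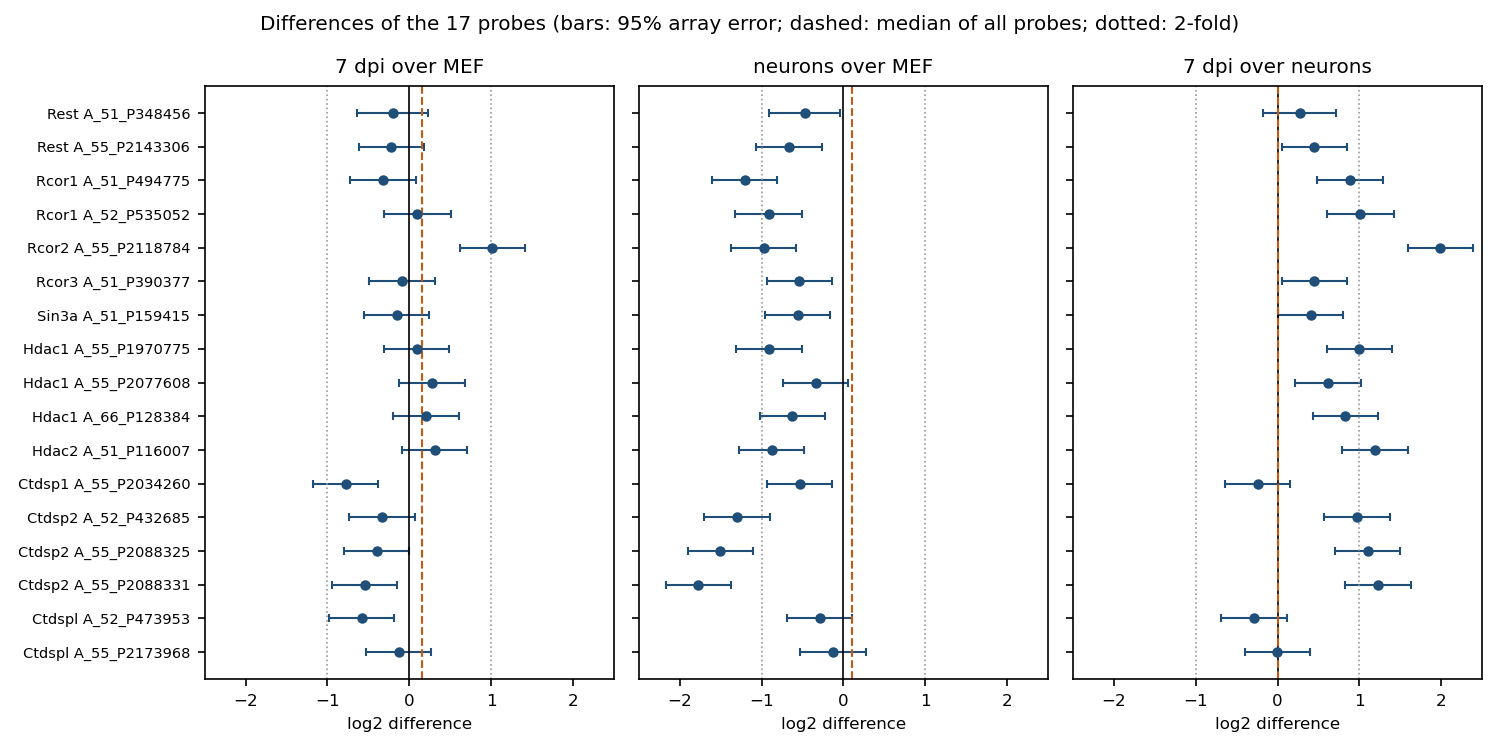
Log2 difference of each of the 17 probes for 7 dpi over MEF, neurons over MEF and 7 dpi over neurons; points are single pairs of arrays, bars the 95% interval of the array error, the dashed line the median of all measured probes and the dotted lines the 2-fold threshold. All 17 points lie below 0 for neurons over MEF, while the points for 7 dpi over MEF lie on both sides of 0 and 1, Rcor2, is past the threshold.

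Of the probes for the rest of these complexes, most stayed under 2-fold on the Tet3 arrays in the deposited table. So did most of all named probes tested, and nothing particular to these genes is read from it. The list of CoREST and SIN3 partners held 23 genes and 35 probes. Over MEF, 0 probes were higher and 2 lower at 1 dpi, 2 and 3 at 3 dpi, 2 and 0 at 5 dpi, and 1 and 0 at 7 dpi, with medians of -0.02, 0.03, -0.04 and 0.03. Of all named probes tested, 5.06% to 17.6% were higher and 5.51% to 9.24% lower in these 4 comparisons. After centring, 0 and 3, 1 and 7, 1 and 4, and 0 and 0 partner probes were called at these times. In neurons over MEF 3 were higher and 2 lower (30.6% and 15.3% of all), with a median of -0.11. After quantile normalization 1 and 4 were called there, and after centring 0 and 15, where the median was -0.91. Kdm1a, the demethylase of the CoREST complex, stood at 2.03 in MEF, 2.30 at 1 dpi, 2.27 at 3 dpi, 2.24 at 5 dpi, 2.27 for the array labelled 7 dpi and 2.62 in neurons. Unlike the members, its highest array was that of neurons. Hmg20b, the HMG-box subunit of the same complex, was 2.35-fold lower in neurons (1.76) than in MEF (2.99). Sap18, another gene of the list, was 2.25-fold higher in neurons (-1.06) than in MEF (-2.23) by its brightest probe. The Kdm5c probes took opposite signs in neurons, with the brighter at -0.93 from MEF and the other at 1.36. Ehmt1, a histone H3 lysine 9 methyltransferase, stood by its brighter probe at 2.95 in MEF, 1.57 at 1 dpi, 0.90 at 3 dpi, 2.14 at 5 dpi, 2.45 for the array labelled 7 dpi and 1.29 in neurons. It was 2.62-fold lower at 1 dpi, 4.16-fold lower at 3 dpi and 3.17-fold lower in neurons than in MEF. The other Ehmt1 probe, at 1.72 in MEF, 1.48 at 1 dpi, 1.24 at 3 dpi, 1.68 at 5 dpi, 1.75 for the array labelled 7 dpi and 0.98 in neurons, had the same lowest arrays and reached the call on none.

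The 9 other histone deacetylase genes, with 12 probes, had 0 called on any Tet3 array over MEF in the deposited table and medians of -0.18, -0.21, -0.27 and -0.23 at 1, 3, 5 and 7 dpi. The shares of all probes at these times are those given with the partners. In neurons over MEF 4 probes were higher and 1 lower (30.6% and 15.3% of all). After quantile normalization 2 and 1 were called there, and after centring 0 and 3. In the deposited table Hdac9, a class IIa deacetylase, was 2.78-fold higher in neurons than in MEF, Hdac6, a cytoplasmic tubulin deacetylase, was 2.20-fold higher, and Hdac7 was 2.32-fold lower. The median of these probes in neurons over MEF was 0.25 in the deposited table, 0.02 after quantile normalization and -0.55 after centring, so its side of 0 depends on the scaling.

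**Figure D3:**
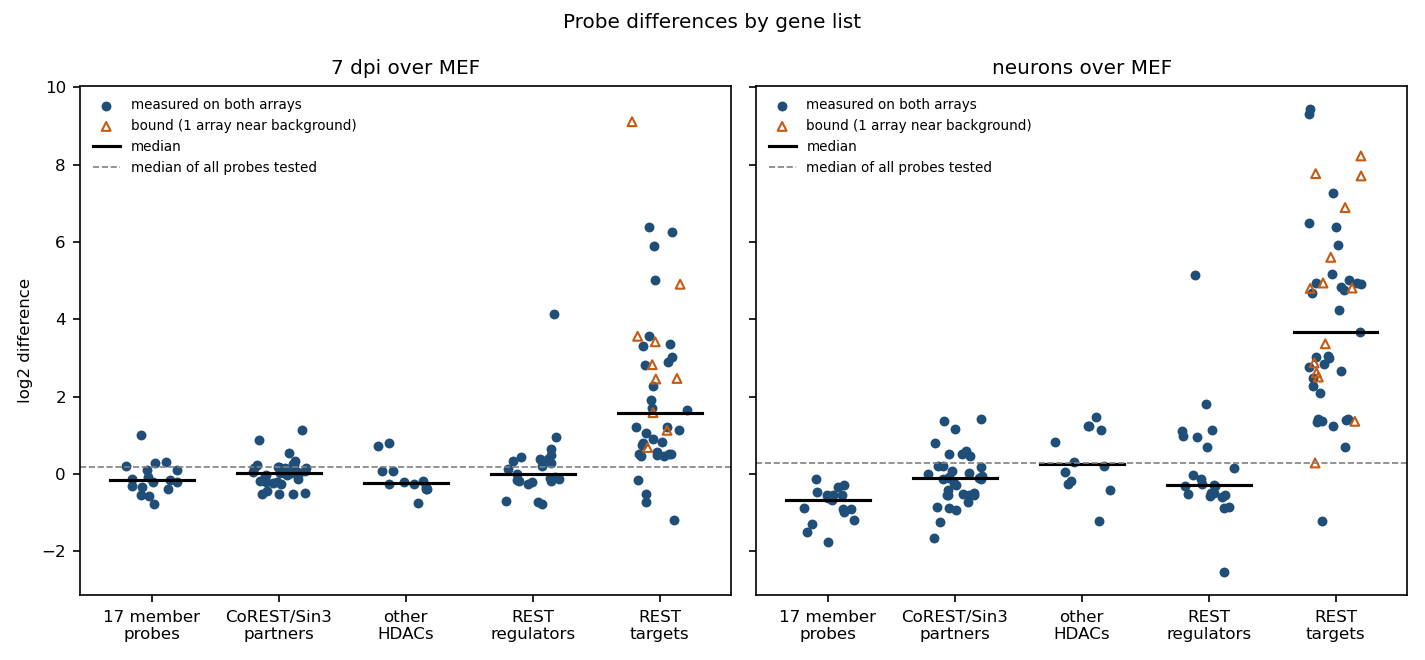
Log2 difference of single probes in 5 gene lists for 7 dpi over MEF and for neurons over MEF; filled points were well above background on both arrays, open triangles are bounds where 1 array was not, black bars are list medians and the dashed line is the median of all probes tested. The members have medians of -0.15 (7 dpi) and -0.66 (neurons), and the REST targets 1.58 and 3.68.

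Among the 11 genes that regulate REST, Srrm4, Btrc and Prickle1 were past 2-fold in neurons over MEF by their brightest probe, Prickle1 in the lower direction. Srrm4 (nSR100) is the neural splicing factor that turns Rest transcripts into the truncated REST4, and it is itself a REST target. It stood at -4.21 in MEF, -3.59 at 1 dpi, -3.43 at 3 dpi, -2.70 at 5 dpi, -0.07 for the array labelled 7 dpi and 0.93 in neurons, above background on all 6. The array labelled 7 dpi was the highest of the Tet3 arrays, and neurons were higher still. Relative to MEF, Srrm4 was higher by 2.85-fold at 5 dpi, by 17.6-fold at 7 dpi and by 35.2-fold in neurons. Relative to 3 dpi, the array labelled 7 dpi was higher by 10.3-fold. Of the list's 23 probes, Srrm4 was the single one called at 7 dpi over MEF in the deposited table, where the list median was 0.00. Of all named probes 16.6% were higher and 6.47% lower in that comparison. After centring 1 probe of the list was higher and 3 lower there, with a median of -0.44. In neurons over MEF 4 were higher and 1 lower (30.6% and 15.3% of all), with a median of -0.30. After quantile normalization 3 and 2 were called there, and after centring 2 and 13.

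Btrc encodes the substrate receptor of the ubiquitin ligase that marks REST for destruction. By its brighter probe it stood at -1.70 in MEF, -1.96 at 1 dpi, -2.85 at 3 dpi, -2.30 at 5 dpi, -1.26 for the array labelled 7 dpi and 0.10 in neurons. It was 2.22-fold lower at 3 dpi and 3.48-fold higher in neurons than in MEF, and the lowest array was thus 3 dpi. The other Btrc probe did not follow it at 3 dpi, where it was at -4.85 against -5.22 in MEF. Prickle1, reported to bind REST and to act on its place in the nucleus, stood at 1.63 in MEF, 1.95 at 1 dpi, 0.97 at 3 dpi, 2.44 at 5 dpi, 1.91 for the array labelled 7 dpi and -0.91 in neurons. It was 5.80-fold lower in neurons than in MEF, and no Tet3 array was called. Mapk3, the kinase ERK1, which phosphorylates REST at the site CTDSP1 acts on, was 2.20-fold lower at 5 dpi (0.56) than in MEF (1.70).

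Genes that REST is known to silence were mostly higher on the array labelled 7 dpi and in neurons. The list held 37 genes and 50 probes, chosen from general knowledge of REST but with earlier results of these data known. Its counts are therefore not independent of these arrays. Over MEF, 11 probes were higher and 5 lower of 37 tested at 3 dpi (15.9% and 9.24% of all). At 5 dpi 14 and 4 of 38 were called (17.6% and 7.83%), and on the array labelled 7 dpi 27 and 1 of 43 (16.6% and 6.47%). At 1 dpi 3 were higher and 3 lower of 34 (5.06% and 5.51%). In neurons 44 were higher and 1 lower of 47 tested, beside 30.6% and 15.3% of all probes. The medians were 0.20, 0.57, 0.73 and 1.58 at 1, 3, 5 and 7 dpi and 3.68 in neurons, with probes dim on 1 array at their bound; without them the last 2 were 1.13 and 3.04. After quantile normalization 22 were higher and 1 lower at 7 dpi, after centring 22 and 2, and with normexp 22 and 1. At 5 dpi these settings gave 9 and 5, 7 and 6, and 9 and 3, and at 3 dpi 8 and 5, 8 and 6, and 6 and 4. The share of all probes called is not given for these settings. Many of these genes are also markers of neurons, whose summed signal differed in the same direction, and these cannot be told apart here. Up to 3 dpi that sum was largely the signal of Snap25, a gene of both lists.

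Vgf, a secreted neuropeptide precursor, stood at -4.17 in MEF, -3.98 at 1 dpi, -1.34 at 3 dpi, -1.14 at 5 dpi, 2.22 for the array labelled 7 dpi and 2.33 in neurons, 84.0-fold higher at 7 dpi than in MEF. Stmn2, a tubulin-binding protein of growth cones, stood at -5.02 in MEF, -3.88 at 1 dpi, -1.78 at 3 dpi, -2.30 at 5 dpi, 1.25 for the array labelled 7 dpi and 4.29 in neurons, 77.0-fold and 632-fold higher than in MEF at 7 dpi and in neurons. Chga, a chromogranin of secretory granules, was 59.3-fold higher at 7 dpi (0.53) than in MEF (-5.37). For Vgf, Stmn2 and Chga the array labelled 7 dpi stood well above the earlier ones. Scg2, another granin, took a different course, at -1.28 in MEF, -1.93 at 1 dpi, -5.14 at 3 dpi, -3.62 at 5 dpi, 0.99 for the array labelled 7 dpi and 1.37 in neurons. It was 14.5-fold lower at 3 dpi than in MEF. Ntrk3, the neurotrophin-3 receptor, was 8.14-fold lower at 3 dpi and still 2.28-fold lower at 7 dpi than in MEF by its brightest probe, and 4.80-fold higher in neurons. Of its 3 other probes, 1 stood at -0.72 from MEF at 7 dpi and 2 at 0.51. Snap25 stood at 1.04 in MEF, 2.69 at 1 dpi, 3.50 at 3 dpi and 2.17 for the array labelled 7 dpi. It was thus 2.53-fold lower at 7 dpi than at 3 dpi. Tac1 was 3.16-fold lower in the same comparison (-3.69 against -2.03). By the brightest probe, 20 of the 34 target genes tested were at least 2-fold higher at 7 dpi than at 3 dpi. The 2 that were lower were Snap25 and Tac1. Scg3 was 692-fold higher in neurons (4.35) than in MEF (-5.08). Chgb was at least 553-fold higher at 7 dpi than in MEF, where it was not well above background, and its probe had an outlier spot.

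**Figure D4:**
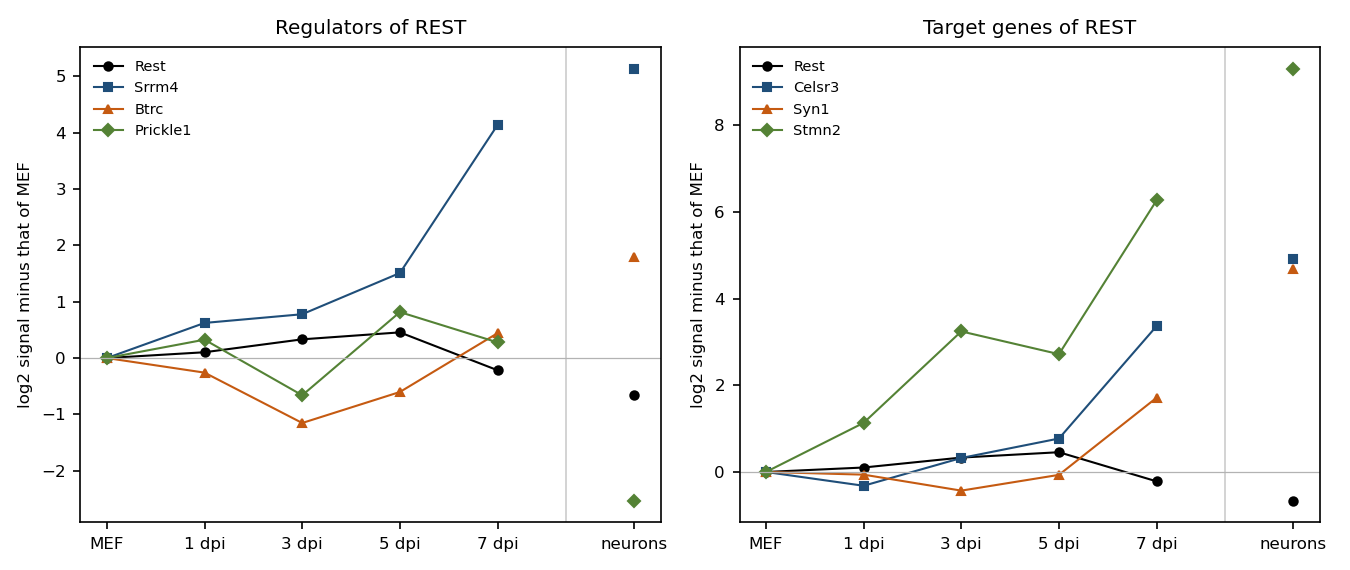
Log2 signal of Rest (brighter probe) with 3 of its regulators (left) and 3 of its targets (right), each minus its own MEF value, on the MEF array, the 4 Tet3 arrays and the neuron array; each point is 1 probe on 1 array. Srrm4 and the targets are highest at 7 dpi among the Tet3 arrays and higher still in neurons, while Rest stays within 0.46 of MEF on the Tet3 arrays.

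The element REST reads was searched for in promoters. The word used was TTCAGCACC, any 2 bases, then GGACAGC, on either strand, with at most 2 of its 16 letters changed, in the 250 bases before and 50 after each start in RefSeq (GRCm38.p6). It was found at 22 of 27025 genes (0.0814%) and at 3 of the 24 target genes that had an entry (12.5%). The matches are printed because they show the element beside 3 genes whose arrays are given here. Capitals mark letters that match the word. They lie at chr9:108825918-108825935 (plus strand), chr3:80802989-80803006 (plus strand) and chrX:20921133-20921150 (minus strand), and begin 127, 171 and 232 bases before the start site.
Celsr3: TTCAGCACCgtGGgCAGC
Gria2: TTtAGCACCgcGGACAGC
Syn1: TTCAGCACCgcGGtCAGa
A match describes the letters and not binding. Around the Celsr3 word, in capitals, the 300 bases of the promoter at chr9:108825795-108826094 (plus strand) read as follows.
Celsr3 promoter: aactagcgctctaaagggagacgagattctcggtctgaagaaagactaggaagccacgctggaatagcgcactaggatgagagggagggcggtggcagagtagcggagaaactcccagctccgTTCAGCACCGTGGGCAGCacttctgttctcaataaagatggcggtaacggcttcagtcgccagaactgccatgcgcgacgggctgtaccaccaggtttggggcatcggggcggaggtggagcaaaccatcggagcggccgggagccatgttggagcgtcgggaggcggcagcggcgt
None of the 8 member genes with an entry held the word, and the closest stretch differed at 5 letters. Rest and Hdac1 had no entry and were not searched.

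Celsr3, a cadherin of axon guidance, stood at -4.24 in MEF, -4.56 at 1 dpi, -3.92 at 3 dpi, -3.47 at 5 dpi, -0.88 for the array labelled 7 dpi and 0.68 in neurons. Syn1, the synaptic vesicle protein synapsin, stood at -2.13 in MEF, -2.19 at 1 dpi, -2.56 at 3 dpi, -2.20 at 5 dpi, -0.42 for the array labelled 7 dpi and 2.56 in neurons. Up to 5 dpi both were within 2-fold of MEF, at 0.77 for Celsr3 at 5 dpi and -0.43 for Syn1 at 3 dpi. The array labelled 7 dpi and neurons stood above, at 10.3-fold and 30.2-fold over MEF for Celsr3 and 3.28-fold and 25.8-fold for Syn1. Gria2, a glutamate receptor subunit, was not well above background in MEF. The Gria2 probe brighter on the mean of the 6 arrays exceeded MEF by at least 2.18-fold for 7 dpi (-5.47) and by at least 28.0-fold in neurons (-1.79). Its other probe was brighter on these 2 arrays. It exceeded MEF by at least 5.53-fold for 7 dpi (-4.13) and by at least 119-fold in neurons (0.29).

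The genes whose profile was most like that of Rest over the 6 arrays were Emd (Pearson r = 0.985 with the brighter Rest probe), Car6 (0.984), Nagpa (0.984), Prkg2 (0.984) and Ccnt2 (0.983), out of 9869 that were above background on all 6 and spanned at least 1. The points share the arrays, their scaling and the scans. With so few points, 327 of the 9869 (3.31%) had an r of 0.9 or more.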

How the data were processed

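RNA of 6 samples was hybridised to 1 Agilent single-colour mouse array each. The submitters' processing notes name Agilent Feature Extraction 11.0.1.1. The intensity values in the deposited scanner files are processed and median spot signals, per the file headers. The deposited log2 table, scaled by the authors to a 75th percentile of 0 on each array, gave the values used. Its column medians were -3.30 (MEF), -3.23, -3.00, -2.90 and -2.86 (1, 3, 5 and 7 dpi) and -2.50 (neurons), its correlation with log2 values computed from the scanner signals was 0.99999 on each array, and the sources used here do not name the software that scaled it. All sample columns were used. Probes were named through the accession on the array and RefSeq.

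Differences of log2 values were computed in Python 3.11.15 with numpy 2.4.6 and pandas 2.3.3. A probe well above background on 1 array of a pair gave a bound against the other, taken as the higher of that array's lowest signal called above background and the probe's own signal, and a probe above on neither was not tested. Counts used a 2-fold threshold, and the same rule over all named probes gave the background shares. Errors come from the scanner software, cover the array only, and the number of arrays limits the precision. The calling was tested on simulated data.

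Alternatives were scanner signals, normexp (offset 50; median signals, since mean signals were not used here), quantile normalization (limma 3.58.1, R 4.3.3), centring on the median of all probes, 2 other filters, 1.5-fold and 3-fold thresholds, and the brightest probe per gene. Genes named outside the members are up to 4 per list, comparison and direction by the brightest probe, the 5 most like Rest, Tet3, and, chosen after their values were seen, Kdm1a and the genes with an RE1 word. The members, the lists, the RE1 word and its tolerance were chosen with earlier results of these data known.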

Additional observations from a re-analysis of the deposited data

How the results depend on the processing

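With 1 array in each group, the spread between samples is unknown, and every count below describes pairs of arrays. No paired analysis was possible because each group is a single array and the labels give no replicate numbers. The scanner signals and both filters on dim probes left all 7 counts of called member probes within 1.5 times, and so did normexp. The fold threshold and the scaling mattered. At 1.5-fold, 1 probe was called at 1 dpi, 3 at 3 dpi, 4 at 5 dpi and 2 at 7 dpi over MEF, 10 in neurons over MEF, 10 at 7 dpi over neurons and 5 at 7 dpi over 3 dpi. At 3-fold, 0 were called at 5 dpi and 0 at 7 dpi over MEF, 1 in neurons over MEF and 1 at 7 dpi over neurons. With each array centred on its median, 2 were called at 3 dpi, 3 at 5 dpi and 2 at 7 dpi over MEF, all lower, with 16 lower in neurons over MEF and 9 higher at 7 dpi over neurons. Quantile normalization gave 8 lower in neurons over MEF. In that comparison the median of all measured probes was itself -0.16 after quantile normalization and -0.69 after centring. The share of all probes called is not given for these thresholds and scalings, so nothing is read from these counts. The brightest probe of each gene gave 2 in neurons over MEF and 3 at 7 dpi over neurons, since fewer probes were counted. The brighter Rest probe was -0.66 at 7 dpi and -1.46 in neurons over MEF after centring, against -0.22 and -0.66 as deposited. The median used for centring is taken over all probes, many of them near background. Of the 119 differences of single member probes, normexp moved 2 across the 2-fold threshold, quantile normalization 6 and centring 23, and they turned the sign of 2, 6 and 27.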
